A study of Mus musculus with 4 samples.

Results

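The phagocyte NADPH oxidase genes Cybb, Cyba, Ncf1, Ncf4, Rac2 and Hvcn1 were examined in ATAC-seq peak lists of mouse microglia. Their members were all peaks overlapping the 6 gene bodies with 10 kb on each side (build GRCm38, annotation GENCODE M21). This gave 225 of the 676057 distinct peaks on the autosomes and chromosome X in 4 libraries. In ATAC-seq a transposase inserts adapters into open DNA, so that a peak marks an accessible stretch. Microglia labelled WT (2 libraries) were compared with microglia labelled IRF8KO (2 libraries), the latter lacking interferon regulatory factor 8 by its label. Both groups were untreated and on the C57BL/6 strain, and the cells were FACS-sorted at an age of 3 months after dissociation of the brain without enzymes. The labels do not give the knockout allele, the sex of the mice or the number of animals behind each library, so the spread between replicates may be technical.

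The phagocyte NADPH oxidase moves electrons from NADPH across a membrane to oxygen and so makes superoxide, the first product of the respiratory burst. Its membrane part, cytochrome b558, consists of the catalytic subunit gp91phox (Cybb) and its partner p22phox (Cyba). On activation the cytosolic subunits p47phox (Ncf1) and p40phox (Ncf4) and the GTPase Rac2 join it, and the proton channel Hv1 (Hvcn1) carries out the protons that balance the charge. In the brain, microglia are a main site of this enzyme. IRF8 binds DNA with the ETS factor PU.1 at ETS-IRF composite elements, and with other IRF proteins at interferon-stimulated response elements (ISRE), and PU.1 and IRF proteins are known to bind the human CYBB promoter.

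The sequences below are those on which the results turn. The first 5 are regions that differed between the genotypes or were found in WT alone, and the last 2 are the promoters that hold an ISRE-like match. Capitals mark matches to the letters searched on both strands, which were GGAA, any 2 bases and GAAA (ETS-IRF), GAAA, any 2 bases and GAAA (ISRE), GAGGAAGT (PU.1), TGAGTCA (AP-1) and TTGCNNAA (CEBP). Matches of the ETS-IRF and PU.1 letters can overlap one another, and so can those of ETS-IRF and ISRE. The Ncf4 sequence is on the plus strand, and the other 6 are on the minus strand, which is the coding strand of Cybb and Ncf1. Genome sequence is GRCm38, and both promoters are the 250 bases before the start in the RefSeq promoter table of the same build. That table held 3 of the 6 genes, Cybb, Cyba and Ncf1.
Ncf4 intron, lower in IRF8KO, chr15:78257293-78257496, capitals CEBP and ETS-IRF: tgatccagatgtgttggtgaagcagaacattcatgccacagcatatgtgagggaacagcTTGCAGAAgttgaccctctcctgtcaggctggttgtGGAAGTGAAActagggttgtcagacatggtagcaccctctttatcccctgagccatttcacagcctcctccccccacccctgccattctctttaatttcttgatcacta
Cybb intron, higher in IRF8KO, chrX:9462808-9463107, capitals CEBP, CEBP and PU.1: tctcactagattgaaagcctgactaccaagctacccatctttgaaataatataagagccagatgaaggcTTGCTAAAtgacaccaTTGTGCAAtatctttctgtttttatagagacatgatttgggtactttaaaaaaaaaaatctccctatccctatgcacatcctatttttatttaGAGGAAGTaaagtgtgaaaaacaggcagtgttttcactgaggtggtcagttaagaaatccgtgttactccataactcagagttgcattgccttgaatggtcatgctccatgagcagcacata
Cybb intron, lower in IRF8KO after median-centring, chrX:9460514-9460813, capitals CEBP, AP-1 and ETS-IRF: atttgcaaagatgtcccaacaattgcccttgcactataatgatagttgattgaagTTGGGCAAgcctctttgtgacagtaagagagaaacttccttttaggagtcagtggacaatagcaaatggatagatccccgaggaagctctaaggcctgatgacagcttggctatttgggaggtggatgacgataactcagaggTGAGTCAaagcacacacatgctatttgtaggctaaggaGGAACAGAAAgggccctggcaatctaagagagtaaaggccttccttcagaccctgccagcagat
Cybb intron of a longer transcript, peaks in WT alone, chrX:9473838-9474058, capitals ETS-IRF: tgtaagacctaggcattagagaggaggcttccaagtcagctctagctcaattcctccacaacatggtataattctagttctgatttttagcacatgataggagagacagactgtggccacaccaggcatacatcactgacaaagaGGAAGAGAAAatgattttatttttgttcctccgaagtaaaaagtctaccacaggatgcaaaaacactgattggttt
Region upstream of Cybb, peaks in WT alone, chrX:9489469-9489687, capitals ETS-IRF: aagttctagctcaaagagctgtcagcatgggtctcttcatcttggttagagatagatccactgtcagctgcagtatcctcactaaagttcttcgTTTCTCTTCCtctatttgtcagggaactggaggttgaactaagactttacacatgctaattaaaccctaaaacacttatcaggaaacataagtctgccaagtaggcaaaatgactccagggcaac
Cybb promoter, chrX:9469325-9469574, capitals ISRE: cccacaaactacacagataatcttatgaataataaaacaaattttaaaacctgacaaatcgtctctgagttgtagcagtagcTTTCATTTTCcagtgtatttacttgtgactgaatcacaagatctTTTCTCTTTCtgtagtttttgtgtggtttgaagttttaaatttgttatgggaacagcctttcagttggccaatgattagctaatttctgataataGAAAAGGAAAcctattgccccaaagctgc
Ncf1 promoter, chr5:134229626-134229875, capitals ISRE: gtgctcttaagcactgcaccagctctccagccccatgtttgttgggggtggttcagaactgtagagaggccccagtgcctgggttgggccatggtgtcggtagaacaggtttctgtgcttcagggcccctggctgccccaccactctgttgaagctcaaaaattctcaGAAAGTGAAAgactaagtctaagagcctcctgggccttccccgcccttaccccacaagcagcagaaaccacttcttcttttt

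The libraries held 46948938 and 48896408 tags in the WT libraries, and the IRF8KO libraries held 78793572 and 66224648. Tag length was 50 bases in WT and 49 in IRF8KO, so depth and tag length cannot be told apart from genotype. Values are therefore scaled pileup, the height of a peak per 1000000 tags of its library. On this scale the median over the 58550 regions with a peak in every library was 0.31 lower in IRF8KO (log2), and IRF8KO replicate 1 was the lowest library. Changes were for that reason tested both on this scale and after each library was centred on its median, which reports them relative to the typical region. Of 7 microglial marker genes, all 7 had a strict promoter peak (−log10 q of 2 or more) in both WT libraries and 6 in both IRF8KO libraries, the exception being Sall1. The Irf8 promoter region was accessible in every library, at 2.07 and 1.49 in WT and 0.863 and 1.36 in IRF8KO (limma log2 difference −0.70, adjusted p = 0.415), and peak lists do not show whether the gene was deleted.

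All 6 oxidase genes had an accessible promoter in all 4 libraries, and limma called 0 of these promoters between genotypes (0 at an unadjusted p under 0.05, and after centring 1). Strict peaks were merged over the libraries into 155546 regions, of which 60 lay in the 6 windows. A region's value in a library was its highest scaled pileup. Ncf4, the gene of p40phox, had the most accessible promoter (chr15:78244568-78245139), with 5.07 and 3.95 in WT and 3.16 and 3.26 in IRF8KO. Both WT libraries lay above both IRF8KO libraries, but the log2 difference of −0.48 ± 0.40 (limma, SE) had an adjusted p of 0.558. Its mean of 3.86 stood at the 88.1 percentile of 20025 promoter regions, those within 1 kb of any annotated start. The Ncf1 promoter (p47phox, chr5:134229457-134229788) read 2.71 and 2.07 in WT and 1.75 and 2.28 in IRF8KO, and the groups overlapped. The Cyba promoter (p22phox, chr8:122432794-122433066) read 2.09 and 1.51 in WT and 1.07 and 1.80 in IRF8KO, again with overlap. A gene's promoter region was its highest region over an annotated start, among those with a peak in every library. A second Cyba region (chr8:122432276-122432740) lay within 1 kb of a start but not over one. It read 2.85 and 2.07 in WT and 2.65 and 2.45 in IRF8KO. Its mean of 2.505 was above those of the Cyba promoter so defined (1.62) and the Ncf1 promoter (2.20).

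The other 3 promoters were lower. Rac2, the GTPase of blood cells, read 1.26 and 0.839 in WT and 0.774 and 0.951 in IRF8KO at its promoter (chr15:78572671-78573274). Hvcn1, the proton channel, read 0.958 and 0.634 in WT and 0.888 and 0.951 in IRF8KO (chr5:122209696-122210192). Values of the 2 genotypes overlapped at both genes. Cybb, which encodes the catalytic subunit, had the least accessible promoter of the 6 (chrX:9469182-9469509), with 0.618 and 0.552 in WT and 0.381 and 0.483 in IRF8KO. Its mean of 0.508 stood at the 24.2 percentile of promoter regions. Cybb lies on chromosome X and the labels do not give the sex, so its copy number relative to autosomal genes is not known. Whether copy number bears on its rank was not tested. Both WT values lay above both IRF8KO values, and the log2 difference was −0.45 ± 0.53 (limma, SE, adjusted p = 0.703), or −0.14 after centring (adjusted p = 0.804). By the range over the 4 libraries, the neighbours Ncf1 and Cyba, Cyba and Rac2, and Rac2 and Hvcn1 overlapped, while Ncf4 lay above Ncf1 and Cybb below Hvcn1. Among all promoter regions limma called 3.5% lower and 0.994% higher in IRF8KO, and after centring 8.26% and 7.44%.

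**Figure D1:**
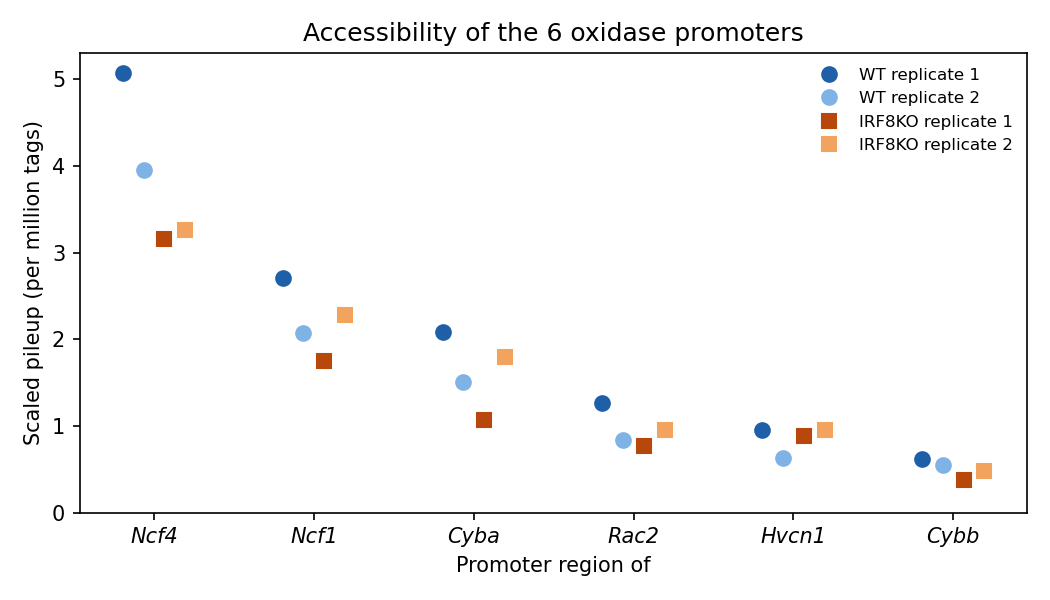
Scaled pileup (per 1000000 tags, y axis) at the promoter region (over an annotated start) of each of the 6 genes (x axis), 1 point per library, circles for WT and squares for IRF8KO. Ncf4 is the highest at 3.16 to 5.07 and Cybb the lowest at 0.381 to 0.618, and WT points lie above both IRF8KO points at Ncf4 and Cybb.

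Away from the promoters, differences between the genotypes were found at single regions in both directions. Of the 60 regions, 34 had a peak in every library and entered the limma test, which was run over all 58550 such regions with Benjamini-Hochberg adjustment. On the scaled pileup 1 of the 34 was lower and 1 higher in IRF8KO (2.94% each), against 6.82% and 2.81% of all regions tested. After centring 5 were lower (14.7%) and 4 higher (11.8%), against 12.5% and 13.3%. Both genotypes' values were free of overlap in 13 regions that were lower (38.2%) and 5 that were higher (14.7%), against 37.1% and 11.9%. These shares were near those of all regions. The median log2 difference of the 34 regions was −0.26, against −0.31 for all regions.

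**Figure D2:**
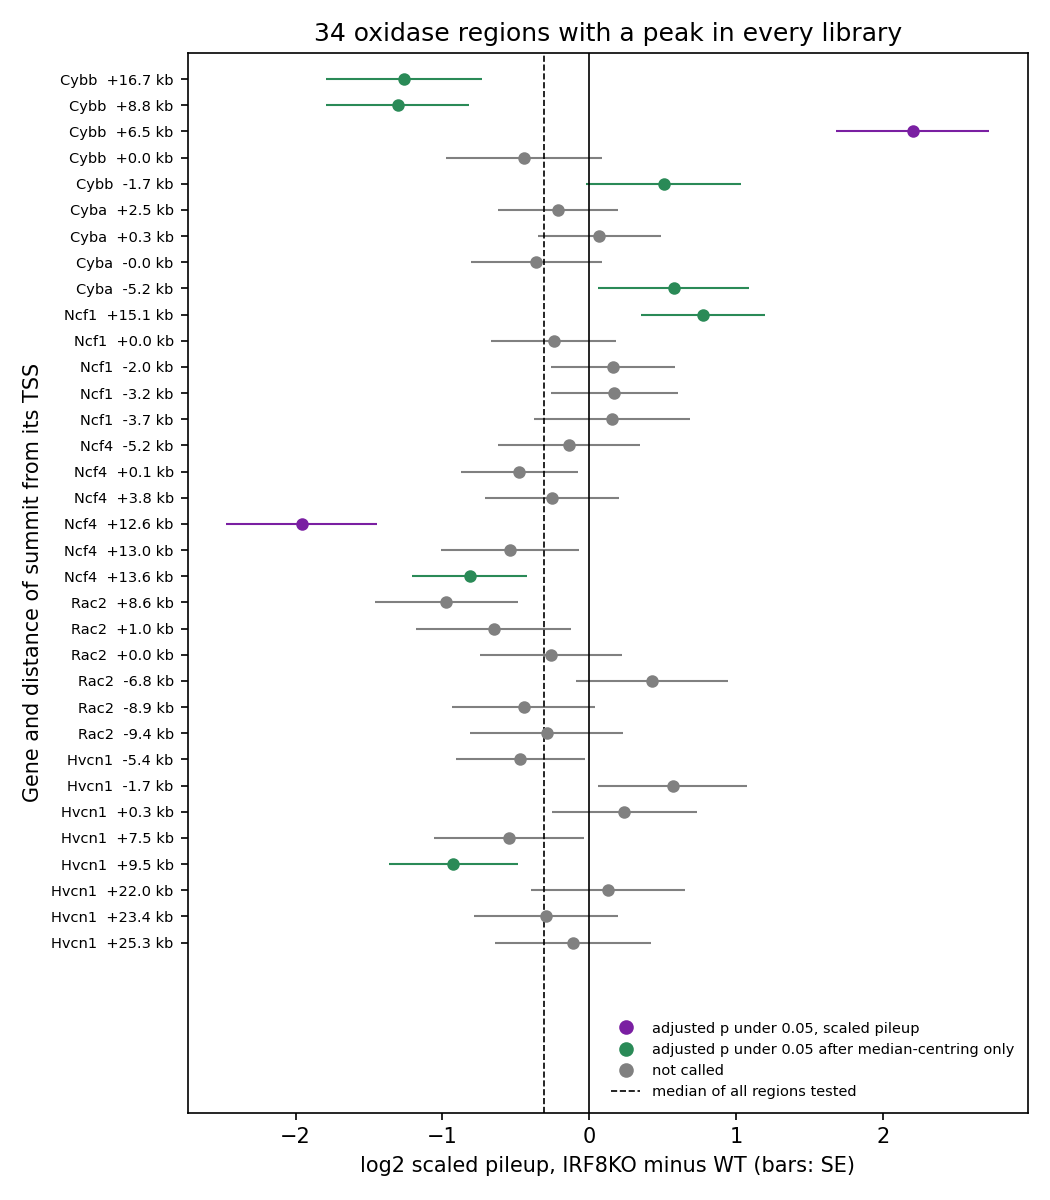
Log2 difference in scaled pileup, IRF8KO minus WT (x axis), for the 34 regions with a peak in all 4 libraries, named by gene and distance of the summit from its start (y axis), with bars for the limma SE and a dashed line at the median of all regions tested. The Cybb region 6.46 kb into the gene stands out at 2.20 and the Ncf4 region 12.6 kb into the gene at −1.96, and 7 further regions were called after median-centring of all 4 libraries but not on the uncentred scale.

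Cybb, the catalytic subunit, held regions that moved in opposite directions along the gene. The region 6.46 kb into the gene (chrX:9462674-9463107, intron) read 0.362 and 0.204 in WT and 0.901 and 1.74 in IRF8KO. Both IRF8KO libraries lay above both WT libraries, and the ratio was 4.60. The log2 difference was 2.20 ± 0.52 (limma, SE, adjusted p = 0.000852), and 2.51 ± 0.30 after centring (adjusted p = 1.45e-10). With replicate number as a block, the limma adjusted p was 0.103 uncentred and 1.63e-15 centred. Only 1 library had to be left out for the call on the uncentred scale to be lost, WT replicate 1 (log2 difference 2.61, adjusted p = 0.205) or WT replicate 2 (1.79, adjusted p = 0.534). After centring the call stood without either, at 2.76 and 2.25.

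Further into Cybb the direction was the opposite. The intronic region 8.76 kb into the gene (chrX:9460397-9460931), the highest of the window in mean, read 1.58 and 1.25 in WT and 0.444 and 0.725 in IRF8KO. Its log2 difference was −1.30 ± 0.49 (limma, SE, adjusted p = 0.069), and it passed after centring at −1.0 ± 0.25 (adjusted p = 0.0013). In WT this region was therefore the higher of the pair, and in IRF8KO the region 6.46 kb into the gene was. The region 16.7 kb into the gene (chrX:9452467-9452708), near an internal annotated start, was lower as well, with 0.703 and 0.634 in WT and 0.190 and 0.408 in IRF8KO (centred log2 −0.96, limma adjusted p = 0.0208; 0.125 uncentred). A region 1.66 kb before the RefSeq start, in an intron of the longer transcript (chrX:9470830-9471282), read 0.490 and 0.429 in WT and 0.520 and 0.815 in IRF8KO, with a centred log2 difference of 0.81 (limma adjusted p = 0.0358; 0.656 uncentred). The centred call at 8.76 kb stood with each library left out in turn (limma adjusted p 0.018 to 0.0266), and this region also passed on fold enrichment (log2 −1.39, limma adjusted p = 0.0114). Without IRF8KO replicate 2, the regions at 8.76 kb (limma adjusted p = 0.000896) and 16.7 kb (0.00148) passed on the uncentred scale too. The one at 16.7 kb was lost without WT replicate 1 (0.0698), WT replicate 2 (0.162) or IRF8KO replicate 1 (0.173), and the one before the start was lost without any of the 4 libraries (limma adjusted p 0.0936 to 0.171).

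Cybb also had 2 regions found in WT alone and 2 in IRF8KO alone. A region was called WT-specific when both WT libraries had a strict peak there and neither IRF8KO library listed any peak, and IRF8KO-specific in the converse case. The files list only peaks past a p cutoff of 0.01, so absence means no listed peak and no fold change is given. The WT-specific regions lay 4.62 kb before the RefSeq start, in an intron of a longer annotated transcript (chrX:9473838-9474058; 0.234 and 0.286), and 20.3 kb before it, outside the annotated gene (chrX:9489469-9489687; 0.532 and 0.245). The IRF8KO-specific regions lay over a coding exon 2.05 kb past the start (chrX:9467031-9467367; 0.457 and 0.725) and over an exon in an untranslated region at 33.6 kb (chrX:9435697-9435928; 0.203 and 0.332). With a −log10 q of 5 as the threshold both WT-specific Cybb regions left their class, since each had 1 WT library below it (3.72 and 4.57), while both IRF8KO-specific ones stayed. The Cybb window held 12 and 9 strict peaks in WT, against 7 and 8 in IRF8KO (difference −3.0, exact two-sided permutation p = 0.333, the smallest that 2 against 2 libraries allow). That difference was 0.0 at a −log10 q of 5, and −1.5 without WT replicate 1 and −4.5 without WT replicate 2. Windows with 2 or more regions of each class made up 1.2% of the windows of 18496 protein-coding genes, and Cybb and Hvcn1 were both among them. Windows with 2 or more regions called in each direction after centring made up 1.7%, and Cybb was among those. Both shares are over windows with 1 or more regions, whatever their number. Cybb and Hvcn1 each held 15 regions, the most of the 6, and windows of like size were not compared.

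**Figure D3:**
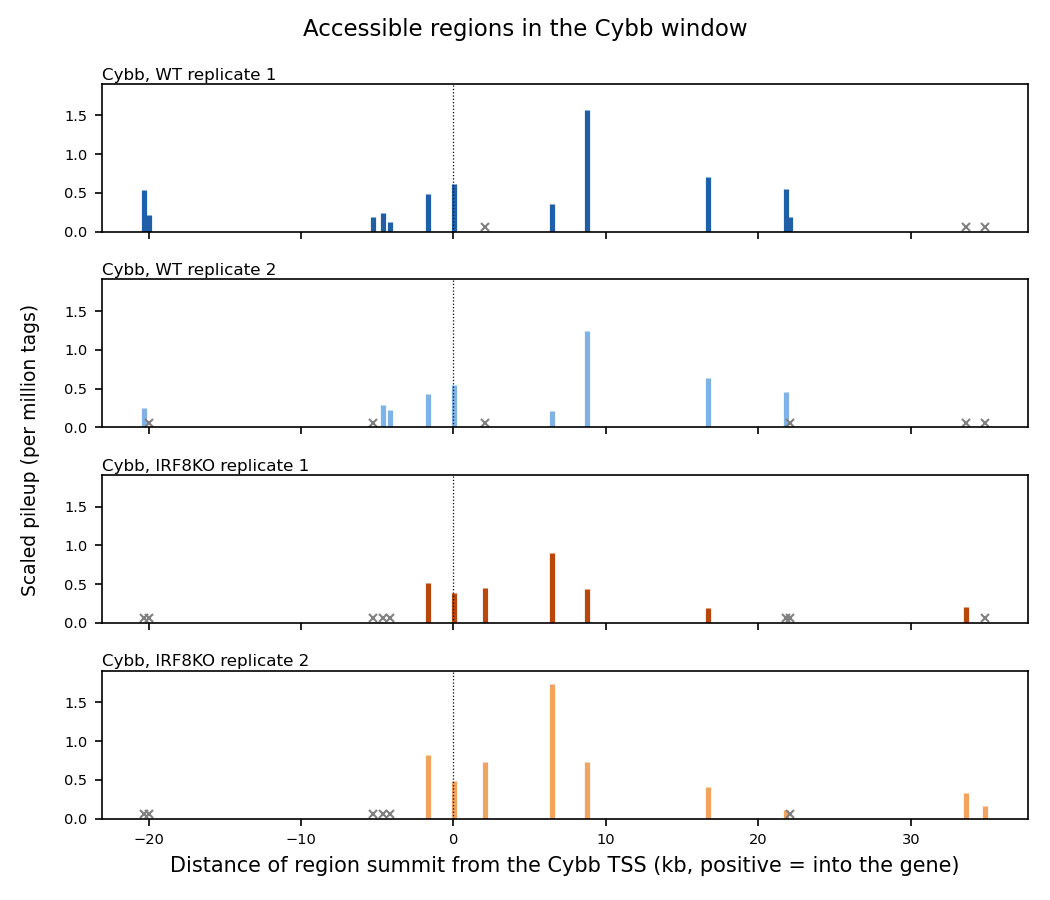
Scaled pileup (per 1000000 tags, y axis) of the regions in the Cybb window against the distance of the summit from the start (x axis, kb, positive into the gene), 1 panel per library, with crosses where a library lists no peak. The bar at 8.76 kb is the tallest in both WT libraries, at 1.58 and 1.25, and the bar at 6.46 kb is the tallest in both IRF8KO libraries, at 0.901 and 1.74.

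Cybb lies on chromosome X, and the sexes are not in the labels. The median log2 difference was −0.25 over 1288 regions of chromosome X and −0.31 over the autosomes.

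Cyba, the partner of Cybb in the membrane, differed less. Its most accessible region lay in an intron 2.52 kb into the gene (chr8:122430029-122430585) and read 3.94 and 2.82 in WT and 2.81 and 2.94 in IRF8KO, with overlap. The log2 difference there was −0.21 ± 0.41 (limma, SE, adjusted p = 0.82), and 0.09 after centring. One Cyba region passed after centring, 5.23 kb upstream and inside the neighbouring gene Mvd (chr8:122437969-122438299), with 0.554 and 0.552 in WT and 0.660 and 1.03 in IRF8KO (centred log2 0.88, limma adjusted p = 0.0127; 0.591 uncentred). That call was lost without WT replicate 1 (limma adjusted p = 0.15), IRF8KO replicate 1 (0.0926) or IRF8KO replicate 2 (0.0836), and fold enrichment gave a log2 difference of 0.23 (0.782). Its window held no region specific to a genotype.

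Among the cytosolic subunits, Ncf4 held the largest loss. The intronic region 12.6 kb into Ncf4 (chr15:78257293-78257496), whose sequence is printed above with its ETS-IRF and CEBP matches, read 1.41 and 1.29 in WT and 0.317 and 0.378 in IRF8KO. Both WT values lay far above both IRF8KO values, at a ratio of 0.257. The log2 difference was −1.96 ± 0.51 (limma, SE, adjusted p = 0.00308), and −1.66 ± 0.28 after centring (adjusted p = 1.9e-06). With replicate number as a block, the limma adjusted p was 0.185 uncentred and 6.94e-08 centred. Without WT replicate 1 the adjusted p was 0.654 and without WT replicate 2 it was 0.443 on the uncentred scale, at differences of −1.90 and −2.02. In IRF8KO replicate 1 the peak was below the strict threshold, with a −log10 q of 1.85.

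Its intronic neighbours read lower in IRF8KO too, by less. The region 13.6 kb into Ncf4 (chr15:78258224-78258658) had the highest mean over the 4 libraries of all 60, though it was not the highest in either IRF8KO library, and read 6.45 and 4.95 in WT and 2.94 and 3.50 in IRF8KO. It passed after centring (log2 −0.51, limma adjusted p = 0.0126; −0.82 and 0.208 uncentred). The call was lost without WT replicate 1 (limma adjusted p = 0.156), WT replicate 2 (0.0961) or IRF8KO replicate 2 (0.174), and fold enrichment gave −0.24 (0.472). Uncentred, the region passed without IRF8KO replicate 2 (limma adjusted p = 0.039). The region between them, 13 kb into the gene, read 1.30 and 1.29 in WT and 1.03 and 0.770 in IRF8KO and was not called on either scale. An IRF8KO-specific region lay 3.08 kb into Ncf4 (chr15:78247786-78248003; 0.558 and 0.755).

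At Ncf1, the organizer p47phox, the regions specific to a genotype were both found in IRF8KO. One lay over an annotated start 1.28 kb into the gene (chr5:134228178-134228497; 0.571 and 0.725) and the other 2.63 kb upstream (chr5:134232197-134232399; 0.520 and 0.861). The Ncf1 window held 4 and 4 strict peaks in WT, against 6 and 7 in IRF8KO (difference 2.5, exact two-sided permutation p = 0.333), and the difference was 0.5 over all deposited peaks, 1.0 in the gene body alone and 4.0 with 50 kb on each side. The highest mean of the window over the 4 libraries belonged to a region within 1 kb of a start of the neighbouring Gtf2ird2 (chr5:134214205-134214873), although the Ncf1 promoter was higher in both WT libraries. It read 2.45 and 1.31 in WT and 2.64 and 3.55 in IRF8KO and passed after centring (log2 1.08, limma adjusted p = 6.47e-06; 0.77 and 0.294 uncentred), also with each library left out in turn, while fold enrichment gave 0.44 (limma adjusted p = 0.316).

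Rac2, the GTPase, had 0 of 6 tested regions called by limma on either scale (1 at an unadjusted p under 0.05 on each) and none specific to a genotype. Its promoter had the highest mean of the window (0.955), but a region near a start of the neighbouring Gm36738 (chr15:78581273-78581910) had nearly the same (0.947) and was the higher in WT replicate 2 (0.961 against 0.839). The largest uncentred difference in the window was at 8.58 kb into the gene, near an internal annotated start (chr15:78564037-78564411), with 0.341 and 0.368 in WT and 0.216 and 0.151 in IRF8KO. Both WT values were the higher, but the log2 difference of −0.97 ± 0.49 (limma, SE) had an adjusted p of 0.233. After centring the largest was in the other direction, 6.82 kb upstream in Gm36738 (chr15:78579529-78579819; 0.256 and 0.307 in WT, 0.241 and 0.589 in IRF8KO), at 0.73 ± 0.36 (limma, SE, adjusted p = 0.13). Both regions were singled out after their values were seen.

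Hvcn1, the proton channel, resembled Cybb in holding regions of both classes. Its most accessible region, in an intron 9.46 kb into the gene (chr5:122218865-122219368), read 2.49 and 2.15 in WT and 1.07 and 1.39 in IRF8KO. Both WT libraries lay above both IRF8KO libraries, and the region passed after centring (log2 −0.62, limma adjusted p = 0.0173; −0.93 and 0.198 uncentred). The call was lost without WT replicate 1 (limma adjusted p = 0.0867), WT replicate 2 (0.175) or IRF8KO replicate 2 (0.124), and fold enrichment gave −0.47 (0.314). Uncentred, it passed without IRF8KO replicate 2 (limma adjusted p = 0.0207). The WT-specific regions lay in an intron 15.1 kb into the gene (chr5:122224710-122224999; 0.469 and 0.491) and beyond the gene, in Tctn1 (chr5:122245187-122245450; 0.447 and 0.245). The IRF8KO-specific regions lay in an intron at 24.2 kb (chr5:122233789-122234024; 0.267 and 0.378) and also in Tctn1 (chr5:122242593-122243001; 0.647 and 1.18).

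**Figure D4:**
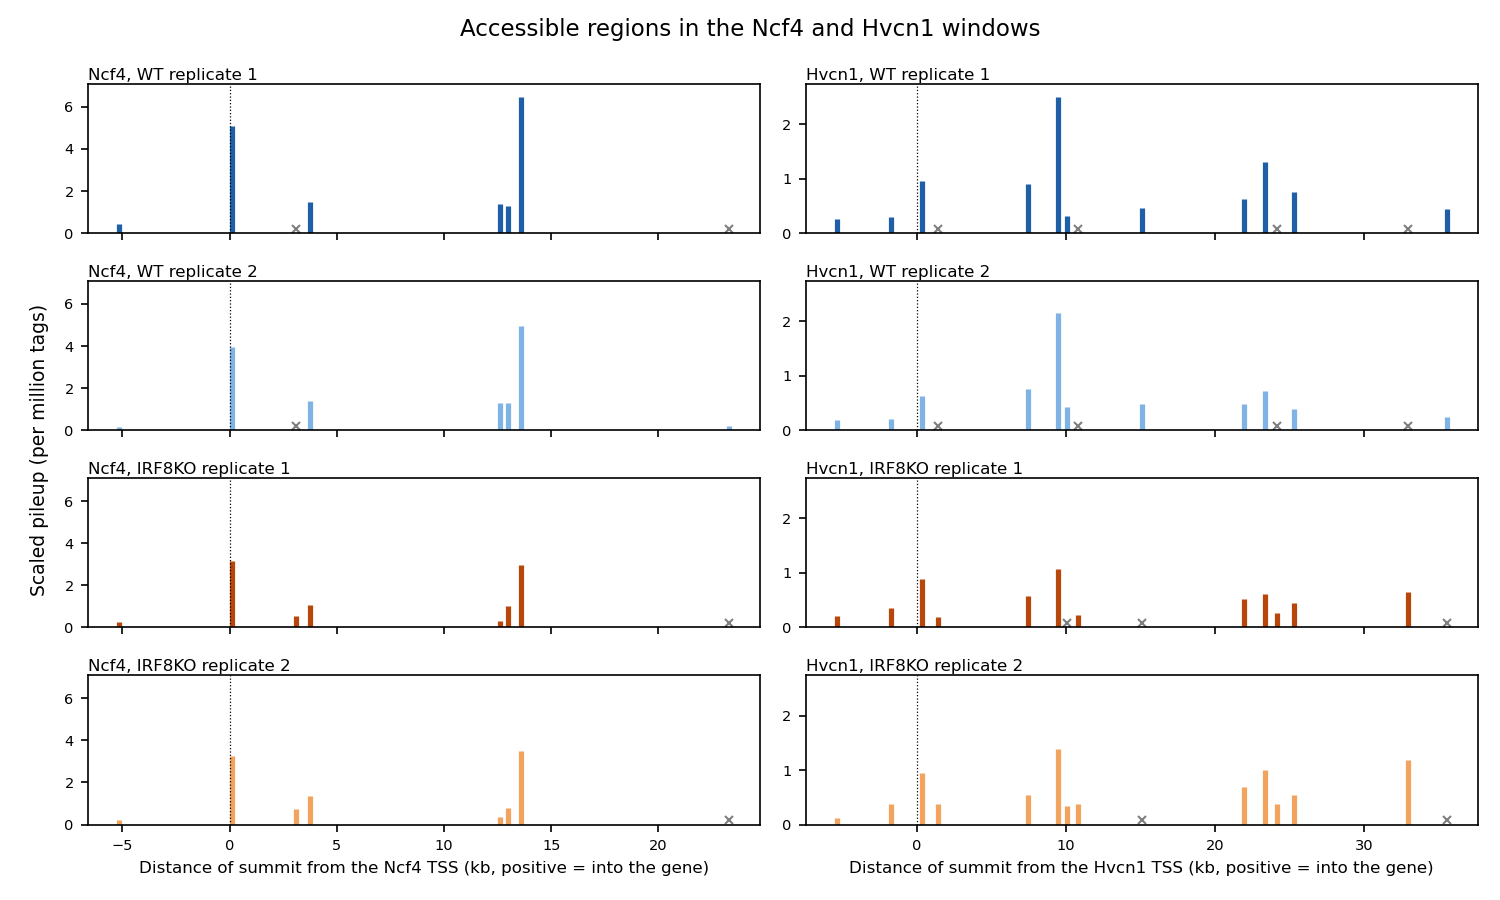
Scaled pileup (per 1000000 tags, y axis) of the regions in the Ncf4 (left) and Hvcn1 (right) windows against the distance of the summit from the start (x axis, kb, positive into the gene), 1 row per library, with crosses where a library lists no peak. The tallest intronic bar reads 6.45 and 4.95 in WT and 2.94 and 3.50 in IRF8KO at Ncf4, and 2.49 and 2.15 against 1.07 and 1.39 at Hvcn1, on the uncentred scale, where neither was called.

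Over the 6 windows, 4 of 60 regions were WT-specific (6.67%) and 7 were IRF8KO-specific (11.7%), against 5.58% and 3.86% of all 155546 regions. All 4 WT-specific regions were at Cybb and Hvcn1, and at a −log10 q of 5 only the one 15.1 kb into Hvcn1 was left, against 5 of the 7 IRF8KO-specific ones. The IRF8KO-specific ones were spread over Cybb, Ncf1 and Hvcn1 (2 each) and Ncf4 (1). The other 15 regions had peaks in 1 to 3 libraries without meeting either definition. In them peaks were limited to WT libraries in 6 regions and to IRF8KO libraries in 6. All 6 windows together held 44 and 40 strict peaks in WT, against 44 and 45 in IRF8KO (difference 2.5, exact two-sided permutation p = 0.667). Over the 7 such tests, 1 per window and 1 for the sum, every Benjamini-Hochberg adjusted value was 1.0.

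**Figure D5:**
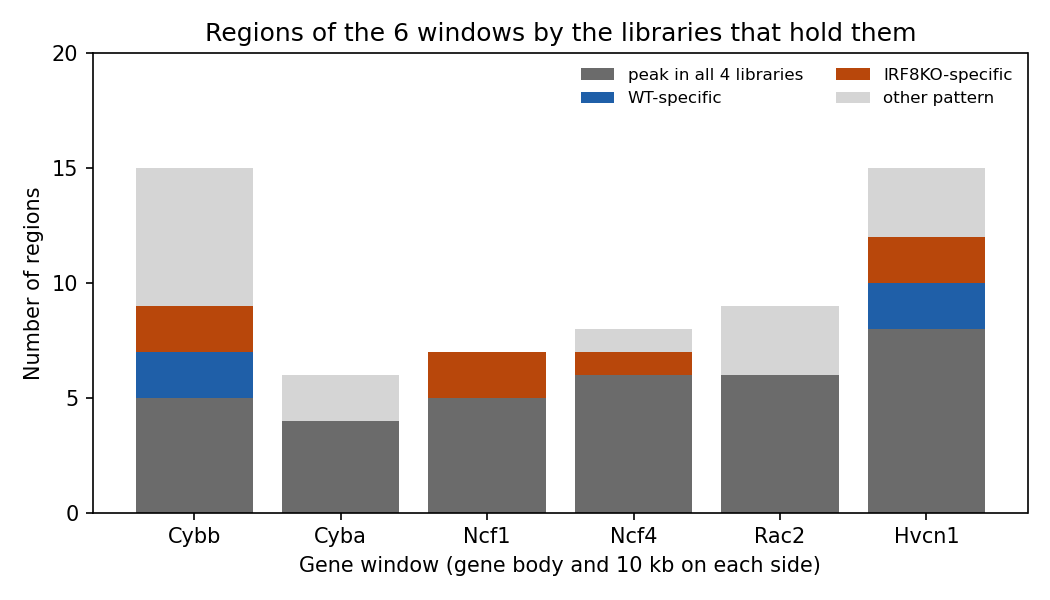
Number of regions (y axis) in each gene window (x axis), stacked by class: a peak in all 4 libraries, WT-specific, IRF8KO-specific and any other pattern. Cybb and Hvcn1 have 15 regions each and 2 of each specific class, and Cyba and Rac2 have none of either.

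ETS-IRF matches lay mostly at Cybb. Within 100 bases of the summit, 10 of the 60 regions held the ETS-IRF letters (16.7%), against 4.3% of all regions, and 6 of those 10 were in the Cybb window. PU.1 letters were in 9 (15%, against 7.73%), CEBP letters in 4 (6.67%, against 9.54%), ISRE letters in 3 (5.0%, against 3.13%) and AP-1 letters in 2 (3.33%, against 5.91%). Of the 4 WT-specific regions, both at Cybb (which leave the class at a −log10 q of 5) held an ETS-IRF match, while those at Hvcn1 held none and had a PU.1 and an ISRE match instead. None of the 7 IRF8KO-specific regions held a match to any of the 5 motifs. Over the whole genome the ETS-IRF share was 18.7% where regions were WT-specific and 1.83% where they were IRF8KO-specific. In the same order the shares were 6.32% and 2.96% for ISRE and 9.34% and 7.83% for PU.1. They were 4.27% and 15.2% for AP-1, and 8.45% and 20.6% for CEBP. ETS-IRF letters were in 2 of the 5 regions lower after centring (Cybb 8.76 kb and Ncf4 12.6 kb) and in 1 of the 4 higher ones (the Cyba region in Mvd), against 12.5% of 7298 and 2.58% of 7816 such regions in all. Near its summit the Cybb intron that was higher in IRF8KO held a PU.1 match, and the Cybb intron that was lower held an ETS-IRF and an AP-1 match, the CEBP letters printed above lying farther from the summits. These are matches to letters, counted as a description, and say nothing of binding.

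The Cybb promoter stood apart in its ISRE letters, with 3 matches in 250 bases. Of 32817 RefSeq promoters, 974 (2.97%) held 1 or more and 4 (0.0122%), Cybb among them, held 3 or more. The Ncf1 promoter held 1 and the Cyba promoter 0. The promoter regions nearest to that of Cybb in pattern over the 4 libraries were those of Gse1 (distance 0.0281 in mean-subtracted log2 values), Wipf1 (0.0331) and Nisch (0.0334). With 4 libraries, 47 of 7125 candidates lay within 0.1.

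The other genes of the pathway were read from lists. Of 10 genes of oxidase assembly and activation, 1 promoter was called lower and 0 higher, and after centring 1 lower and 1 higher. The lower one belonged to Arhgdia, whose product holds Rac in the cytosol, with 2.51 and 1.86 in WT and 0.660 and 0.619 in IRF8KO (limma log2 difference −1.76, adjusted p = 0.00365). Its relative Arhgdib, the form of blood cells, was higher after centring (limma log2 0.62, adjusted p = 0.025; 0.32 and 0.755 uncentred). The median promoter difference over the 10 genes was −0.19. Together their windows held 174 regions, 13 of them WT-specific (7.47%, against 5.58% of all regions) and 9 IRF8KO-specific (5.17%, against 3.86%). Of their 86 tested regions limma called 12 lower (14%, against 6.82%) and 0 higher (against 2.81%), and after centring 20 lower (23.3%, against 12.5%) and 10 higher (11.6%, against 13.3%).

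The specific regions of that list were unevenly spread. Rap1a, a small GTPase found with cytochrome b558, and the kinase gene Pak1 each had 3 WT-specific regions and 0 IRF8KO-specific ones. Prkcb, a protein kinase C gene whose product phosphorylates p47phox, had 3 and 6. Rac1 and Prkcd had 1 of each, the exchange factor gene Vav1 had 1 WT-specific region, and Arhgdib had 1 IRF8KO-specific region. Of 9 other NADPH oxidase genes, 6 had no strict promoter peak in any library, limma called 0 of 2 promoters tested (0 at an unadjusted p under 0.05 on either scale), and Duox1 held the list's only specific region, a WT-specific one (1 of 41 regions, 2.44%). Of 6 genes that remove superoxide or peroxide, 0 promoters were called by limma (0 at an unadjusted p under 0.05, and after centring 0 and 1), and Sod1 and Prdx5 each had 1 WT-specific region (2 of 28 regions, 7.14%, against 5.58%). Of that list's 17 tested regions limma called 2 lower, at Sod1 and Cat (11.8%, against 6.82%), and 2 after centring (against 12.5%).

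Markers of microglia and of other cells were read in the same way. The 7 microglial markers had 120 and 106 strict peaks in WT and 90 and 91 in IRF8KO, and of their 141 regions 10 were WT-specific (7.09%, against 5.58% of all regions) and 4 IRF8KO-specific (2.84%, against 3.86%). Of their 75 tested regions limma called 5 lower (6.67%, against 6.82%) and 3 higher (4.0%, against 2.81%), so these shares were near those of all regions. The P2ry12 promoter was lower in IRF8KO (limma log2 −1.54, adjusted p = 0.0079), and after centring the Cx3cr1 promoter was lower (−0.48, limma adjusted p = 0.0411) and the Olfml3 promoter higher (1.31, limma adjusted p = 2.58e-05). Border macrophage markers (Mrc1, Cd163, Lyve1, Pf4) had 15 and 20 strict peaks in WT and 24 and 31 in IRF8KO, and of their 29 regions 0 were WT-specific (against 5.58%) and 6 IRF8KO-specific (20.7%, against 3.86%). Of their 14 tested regions limma called 2 lower (at Cd163 and Lyve1; 14.3%, against 6.82%) and 1 higher (7.14%, against 2.81%), and after centring 2 lower (against 12.5%) and 5 higher (35.7%, against 13.3%). The Pf4 promoter was higher (limma log2 2.03, adjusted p = 0.00148), a strict Cd163 promoter peak was listed in both IRF8KO libraries and in 0 WT libraries, and Lyve1 had none in any library. The endothelial Cdh5 promoter was lower (limma log2 −2.77, adjusted p = 2.71e-08), with 31 and 25 strict peaks at endothelial markers in WT and 19 and 19 in IRF8KO. Of 38 endothelial regions 4 were WT-specific (10.5%, against 5.58%) and 0 IRF8KO-specific (against 3.86%). Among 19 tested ones limma called 3 lower (15.8%, against 6.82%) and 1, at Pecam1, higher (5.26%, against 2.81%). The astrocyte Aldh1l1 promoter was higher (limma log2 1.98, adjusted p = 0.0035), while the astrocyte marker Slc1a2 had 4 WT-specific regions and 0 IRF8KO-specific ones, 1 region called lower, and 14 and 12 strict peaks in WT against 4 and 6 in IRF8KO. All astrocyte markers together had 34 and 32 in WT and 25 and 25 in IRF8KO. Monocyte markers had 13 and 12 in WT and 7 and 12 in IRF8KO, and the Vcan promoter was lower (limma log2 −1.33, adjusted p = 0.0444), 1 of 3 among 8 tested monocyte regions called lower (37.5%, against 6.82%). Of 21 tested oligodendrocyte regions limma called 6 lower (28.6%, against 6.82%, and 8 or 38.1% after centring, against 12.5%) and 1 higher (4.76%), of which 5 lower and the higher one were at Mbp. Neuron markers had 14 and 23 strict peaks in WT and 11 and 14 in IRF8KO. Of their 6 tested regions limma called 0 lower (against 6.82%) and 0 higher (against 2.81%). After centring 1 was lower and 1 higher (16.7% each, against 12.5% and 13.3%). Lymphocyte markers had 7 and 6 in WT and 6 and 5 in IRF8KO. Neutrophil markers, of cells rich in this oxidase, had 21 and 18 in WT and 20 and 23 in IRF8KO. Of their 30 regions 0 were WT-specific (against 5.58%) and 2 IRF8KO-specific (6.67%, against 3.86%). Among 15 tested neutrophil regions limma called 0 lower (against 6.82%) and 1 higher, at Elane (6.67%, against 2.81%). After centring 1 was lower (6.67%, against 12.5%) and 2 were higher (13.3%, as over all regions). In bulk libraries, fewer cells of a type and less accessible DNA per cell cannot be told apart, and the part of these cells in the oxidase results was not tested.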

How the data were processed

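ATAC-seq was deposited as 1 peak list per library, for 2 WT and 2 IRF8KO libraries of sorted microglia. Per the submitters' processing notes, Bowtie2, MACS2 2.1.1.20160309 and the build mm10 (GRCm38) were used. Per the file headers, each library was called alone with a p cutoff of 0.01 and no control, after cut sites were shifted by -37 bases and extended to 73. The deposited pileup is a signal, a height in extended cut sites that is not scaled for sequencing depth. Fold enrichment over the local background was deposited as a ratio, and the deposited p and q are −log10 values. A header line says that no q was computed, yet the deposited q column held values, which were used. All of these scores are those of the authors.

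Repeated intervals were reduced to distinct peaks with their best summit. Strict peaks (−log10 q of 2 or more) were merged over libraries into regions on the autosomes and chromosome X. A region's value was the highest pileup of any peak overlapping it by 1 bp or more, per 1000000 header tags (scaled pileup), which assumes that pileup scales with tag number. Only regions with a peak in all 4 libraries were tested, which leaves out complete losses and gains. limma 3.58.1 (R 4.3.3, trended variance) was fitted on log2 values without a pseudocount over 58550 regions, and an adjusted p under 0.05 was called. On simulated data, with replicate spread taken from median-centred values, it recovered 67 of 200 regions changed 4-fold (33.5%). The simulated libraries had no offsets from one another, while the real log2 medians ran from −1.17 (IRF8KO replicate 1) to −0.38 (WT replicate 1). That share is therefore not the recovery of the uncentred test. Counts of strict peaks were compared by exact permutation tests (scipy 1.17.1, Python 3.11.15).

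The members and lists were chosen with earlier results of these data known. The regions named were each promoter region, the highest region of each window in mean, and all called or genotype-specific regions. Outside this rule, a second Cyba region near its start, the Ncf4 region at 13 kb and uncalled regions of the Rac2 window were named beside them. List genes were named where the window held a called promoter or a genotype-specific region, except 1 that is not reported here, and genes alike were the 3 nearest to the Cybb promoter. Alternatives covered scaling, fold enrichment, thresholds, overlap, windows, merging, missing values, a replicate block and each library left out. Centring joined with the block or with a library left out was added after seeing the data.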

Additional observations from a re-analysis of the deposited data

How the results depend on the processing

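All regions called lower in IRF8KO numbered 3994, and 1643 were called higher. The lower and higher counts were 7298 and 7816 after median-centring, 872 and 330 with the replicate block, 7395 and 7842 with the replicate block and centring together, and 15371 and 5891 with missing values set to the lowest deposited pileup. Fold enrichment gave 2058 lower. With each library left out in turn they ranged from 134 to 12406 lower and from 96 to 3726 higher, and with centring as well from 4854 to 5252 and from 4837 to 5976 (5356 and 5690 between). Leaving out a library leaves its group with 1, which is then assumed to vary like the other group. Of the oxidase regions, 1 was lower and 1 higher. The counts were 5 and 4 after centring, 0 and 0 with the replicate block, 5 and 4 with block and centring, and 6 and 7 with missing values filled. Fold enrichment gave 2 lower, and a strict peak in every library gave 0 lower, since the Ncf4 region then left the test. They ranged from 0 to 5 and from 0 to 1 with each library left out, and with centring as well they were 2, 3 or 4 in both directions.

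Same-numbered replicates did not deviate together over the regions (correlation 0.00438). With 1 difference per genotype this cannot show whether the libraries were prepared in pairs, and the labels do not say. With the replicate block the Cybb region 6.46 kb into the gene had an adjusted p of 0.103 and the Ncf4 region 12.6 kb into the gene 0.185 (limma), at unchanged differences of 2.20 and −1.96. With block and centring both passed, at 1.63e-15 and 6.94e-08. Over their 14 and 13 alternatives the differences ran from 1.73 to 2.76 and from −2.08 to −1.35.

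WT-specific oxidase regions numbered 4, but 1 at a −log10 q of 5 and 2 in the gene bodies alone. IRF8KO-specific ones numbered 7, but 13 when any deposited peak counted as present. With a library left out they ranged from 4 to 8 and from 7 to 11, where leaving one out only relaxes the definition. The strict peak difference over the 6 windows was −1.0 with 50 kb on each side, and ranged from 0.5 to 4.5 with a library left out.

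Signs turned at uncalled promoters and at the Cyba intron, and the cause was not tested. After centring, the log2 differences were 0.090 at the Cyba intron, 0.062 at Ncf1 and 0.046 at Rac2, the same with the replicate block added. With a library left out the uncentred ranges ran down to −0.74 at Cyba, −0.46 at the Cyba intron, −0.55 at Rac2 and up to 0.54 at Hvcn1. With single libraries left out, with or without centring, the turned signs gave 0.0096 at Cybb, 0.015 and 0.016 at Cyba, 0.0097 to 0.38 at the Cyba intron (0.026 and 0.17 between), 0.028 to 0.19 at Ncf1 (0.096 between), 0.13 at Ncf4, 0.033 to 0.22 at Rac2 (0.18 between) and −0.060 at Hvcn1. Strict peak differences turned to −0.5 at Cyba in the gene body alone, to −5.0 at Ncf4 with 50 kb on each side, and to −1.0 at Rac2 at a −log10 q of 5 or without IRF8KO replicate 1 (3.0 without IRF8KO replicate 2). Depth and tag length follow genotype, and peaks below the deposited cutoff are not seen.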
